A study of Sus scrofa with 11 samples.

Results

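Pig liver was examined after hepatic irradiation for 10 genes of the lipid droplet: the perilipins PLIN2, PLIN3, PLIN4 and PLIN5, the CIDE proteins CIDEB and CIDEC, the triglyceride synthase DGAT2, the triglyceride lipase PNPLA2, and the lipase inhibitors G0S2 and HILPDA. The genes were taken from a fixed list by symbol, and all 10 of 10 were found among the 12505 genes of the table. All 10 had at least 1 FPKM (fragments per kilobase of transcript and library size, a unit that corrects for transcript length) in at least 2 libraries, which 11644 genes had.

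The 11 libraries came from livers of wild-type pigs (Sus scrofa). The 2 controls were labelled day 0 and carried no dose, and 3 libraries each came from livers given 20, 30 or 40 Gy, all labelled day 35. Day and irradiation therefore cannot be told apart in any comparison with control, whereas the doses were compared at the same day. Hepatocyte is the labelled cell type, but RNA was taken from whole livers. They do not say whether the libraries of a group came from separate animals, so p-values measure only the spread between these libraries. Age, sex and breed were not given in the sources used here.

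Lipid droplets are stores of neutral fat wrapped in a single layer of phospholipid and a coat of proteins. In hepatocytes, triglyceride is made on the endoplasmic reticulum and on droplets, is shielded from lipases by perilipins, and is moved between droplets or loaded onto very low-density lipoprotein with the help of CIDE proteins. It is released by the lipase PNPLA2 (also called ATGL), which the co-activator ABHD5 switches on and G0S2 and HILPDA restrain. PLIN2 protein is broken down when it is not bound to fat, and its gene responds to fatty acids through PPAR receptors, so it is often used as a marker of fatty liver.

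Some libraries stood closer to each other than their labels would place them. Over the 4806 genes with at least 5 FPKM in every library, the SD of the log2 ratio was 0.13 between 20Gy-3 and 30Gy-3 and 0.137 between 30Gy-1 and 30Gy-2, against 0.305 to 1.01 in the other 53 pairs. The pair within 30 Gy was counted once in means and SDs, so n was 2 for control, 3 for 20 Gy, 2 for 30 Gy and 3 for 40 Gy. The fit kept all libraries apart. Its SEs and p-values thus take near-identical libraries as separate and may be too small. Of 6119 genes with at least 5 FPKM in both 20Gy-3 and 30Gy-3, 3 differed by more than 2-fold, and G0S2 was among them, with 12.8 FPKM in 20Gy-3 and 5.78 in 30Gy-3 (2.21-fold). The others were TMA16 and LRMDA. The other 9 lipid droplet genes differed by at most 1.42-fold within either close pair. Within 40 Gy, library 40Gy-1 stood apart from 40Gy-2 and 40Gy-3 for several of the genes below.

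Averaged over the 3 doses, PLIN2, PLIN3, CIDEB and CIDEC fell against control, by 1.66 to 2.95 on the log2 scale, and none of the 10 genes rose. These 4 of 10 stand beside a background of 2.84% of all 11644 genes called lower and 1.86% called higher in that comparison. With the close 30 Gy pair averaged, 4 members and 337 genes were called in either direction, against 548 genes in the main fit. Without 20Gy-3 and 30Gy-3, 3 members and 290 genes were called. DGAT2 overlapped the controls at the lower doses and fell at 40 Gy. PLIN5, on average the most abundant of the 10, and PNPLA2, PLIN4, G0S2 and HILPDA passed no test in any comparison. All 10 estimates were below 0, with a median log2 change of -1.40, against 0.01 over all genes tested. The tests were limma's, on log2(FPKM + 1). P-values were Benjamini-Hochberg adjusted across the 11644 genes, and a gene was called at an adjusted p under 0.05. Fold changes on this scale understate the change of genes with low values. Where libraries of groups are said to overlap or not, this is a description. The share of all genes without overlap was not counted. In bulk tissue, fewer cells of a type and less RNA per cell cannot be told apart.

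**Figure D1:**
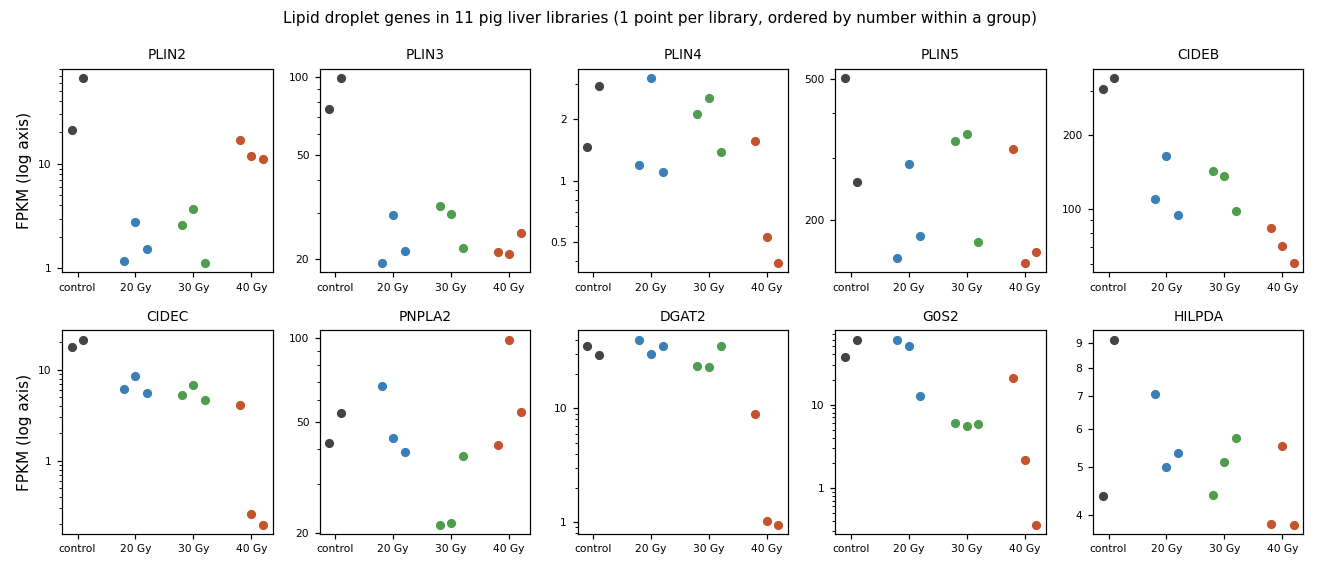
FPKM of each lipid droplet gene on a log axis, with 1 point per library and the groups control, 20 Gy, 30 Gy and 40 Gy from left to right. PLIN2 is lowest at 20 and 30 Gy and DGAT2 only at 40 Gy, while the PLIN5 points of the groups overlap.

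The perilipins coat the droplet surface. PLIN2 (ENSSSCG00000035863; chromosome 1, 203683867 to 203709277 in Sscrofa11.1) is the general droplet coat protein of liver. It was measured at 21.3 and 66.6 FPKM in the controls. At 20 Gy the libraries held 1.17, 2.76 and 1.54 FPKM, at 30 Gy 2.59, 3.66 and 1.13, and at 40 Gy 16.9, 11.8 and 11.2. The 6 libraries of the lower doses lay below every 40 Gy library, and every 40 Gy library lay below both controls. The mean fell from 43.9 ± 32.1 FPKM (SD, n = 2) to 1.83 ± 0.833 (n = 3) at 20 Gy, which is 4.15% of control, and to 2.13 ± 1.41 (n = 2) at 30 Gy, which is 4.84%.

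The log2 change of PLIN2 was -3.82 at 20 Gy (SE 0.467, limma adjusted p = 0.00204) and -3.56 at 30 Gy (SE 0.467, adjusted p = 0.00353). At 40 Gy the mean was 13.3 ± 3.13 FPKM (n = 3), 30.3% of control, and the log2 change of -1.46 (95% interval -2.50 to -0.42) did not pass (adjusted p = 0.0874). It passed without control-1 (-2.26, adjusted p = 0.0439) or 40Gy-1 (-1.63, 0.0483), and was -0.66 without control-2 (0.495). PLIN2 was the only member called higher at 40 Gy than at the lower doses, with a log2 difference of 2.23 (SE 0.361, adjusted p = 0.00318). The controls differed 3.13-fold from each other. Averaged over the doses, the log2 change was -2.95 (SE 0.400, adjusted p = 0.00353), -2.14 without control-2 (adjusted p = 0.059) and -3.75 without control-1 (adjusted p = 0.0058). The value at 20 Gy ranged from -4.62 without control-1 to -3.02 without control-2, and that at 30 Gy from -4.36 to -2.76. A further fit averaged the close 30 Gy pair and left out 20Gy-3 and 30Gy-3, so only that average stood for 30 Gy. There PLIN2 was -3.23 at 30 Gy and -2.82 averaged over the doses, and neither call held.

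PLIN3 (ENSSSCG00000038954; chromosome 2, 73970149 to 73995314), a perilipin that is also found in the cytosol and joins small nascent droplets, fell to a similar level at every dose. Its controls held 75.3 and 98.9 FPKM. The libraries held 19.3, 29.6 and 21.5 FPKM at 20 Gy, 31.9, 29.6 and 22.1 at 30 Gy, and 21.2, 20.9 and 25.2 at 40 Gy. All 9 irradiated libraries were below both controls, and the 3 doses overlapped. The log2 change was -1.79 averaged over the doses (SE 0.207, limma adjusted p = 0.00181). By dose it was -1.86 at 20 Gy (adjusted p = 0.00274), -1.61 at 30 Gy (adjusted p = 0.00649) and -1.90 at 40 Gy (adjusted p = 0.00254), each with SE 0.241. Without control-2 the call at 30 Gy was lost (adjusted p = 0.0849). Between 40 Gy and the lower doses the difference was -0.17 (95% interval -0.58 to 0.25, adjusted p = 0.546), where PLIN2 was called higher.

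PLIN5 (ENSSSCG00000013513; chromosome 2, 74304613 to 74314314), the perilipin of oxidative tissues that brings droplets to mitochondria, was the most abundant member in 10 of the 11 libraries, all but control-2, where CIDEB was higher. Its mean level stood at percentile 97.5 of all genes, against 95.9 for CIDEB and 67 for PLIN2. Its level was 502 and 256 FPKM in the controls, 156, 288 and 181 at 20 Gy, 335, 350 and 174 at 30 Gy, and 317, 152 and 163 at 40 Gy. The groups overlapped, and libraries within each group differed by 1.85- to 2.09-fold. The log2 change averaged over the doses was -0.69 (SE 0.391, limma adjusted p = 0.36).

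PLIN4 (ENSSSCG00000013512; chromosome 2, 74318624 to 74331920) lies 4309 bases from PLIN5. It is a perilipin of adipocytes and muscle, and here it was the least abundant member on the FPKM scale over all libraries. It was measured at 1.46 and 2.90 FPKM in the controls, at 1.10 to 3.20 in the 6 libraries of the lower doses, and at 1.56, 0.524 and 0.394 at 40 Gy. The difference between 40 Gy and the lower doses was -0.69 (SE 0.287, limma adjusted p = 0.112), and it passed without 40Gy-1 (adjusted p = 0.0283). The gene overlaps HDGFL2, which held 8.71 to 16.2 FPKM. PLIN1, the adipocyte perilipin, was as low, with 1.55 and 3.58 FPKM in the controls and 0.229 to 1.83 after irradiation (log2 change -0.89, SE 0.31, adjusted p = 0.145).

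The share of PLIN2 in the perilipin message was lowest at 20 and 30 Gy. Summed over PLIN2 to PLIN5, perilipin mRNA was 600.3 and 424.9 FPKM in the controls and 178 to 385.9 FPKM in the irradiated livers. PLIN5 made up 83.7% and 60.4% of the sum in the controls and 81.5% to 90.7% after irradiation. PLIN2 made up 3.54% and 15.7% in the controls, 0.571% to 0.95% at 20 and 30 Gy, and 4.75% to 6.38% at 40 Gy. The ratio of PLIN5 to PLIN2 in FPKM was 23.6 and 3.85 in the controls, 95.5 to 153 at the lower doses, and 12.9 to 18.7 at 40 Gy. The 40 Gy libraries thus lay between the controls in both PLIN2 share and ratio, and the lower doses lay outside them. These shares are descriptions and were given no test.

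**Figure D2:**
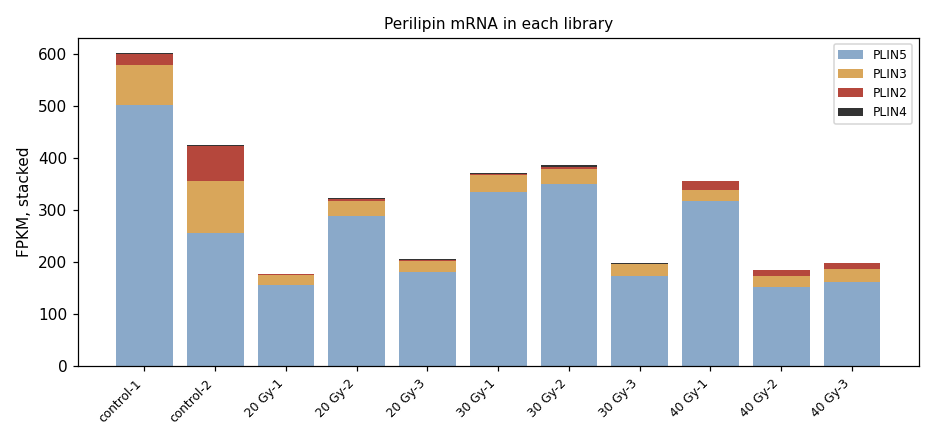
Perilipin mRNA in each of the 11 libraries as stacked bars, in FPKM, with PLIN5, PLIN3, PLIN2 and PLIN4 in separate colours. PLIN5 fills most of every bar, and the PLIN2 band is wide in control-2, thin at 20 and 30 Gy (at most 0.95%) and visible again at 40 Gy (4.75% to 6.38%).

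The CIDE proteins enlarge droplets by moving fat between them, and in liver CIDEB also serves the loading of very low-density lipoprotein. CIDEB (ENSSSCG00000001989; chromosome 7, 74982941 to 74985776) held 307 and 341 FPKM in the controls. It held 110, 164 and 94.9 FPKM at 20 Gy, 143, 136 and 98.1 at 30 Gy, and 83.8, 71.1 and 60.6 at 40 Gy. All irradiated libraries lay below both controls, and all 40 Gy libraries lay below every library of the lower doses. The mean fell from 324 ± 24.2 FPKM (n = 2) to 71.8 ± 11.6 (n = 3) at 40 Gy, a log2 change of -2.17 (SE 0.276, limma adjusted p = 0.00254).

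The CIDEB change at 20 Gy was -1.43 (SE 0.276, adjusted p = 0.019) and that at 30 Gy was -1.38 (SE 0.276, adjusted p = 0.0276). Both were sensitive to single libraries. The call at 20 Gy was lost without control-1, control-2, 20Gy-1 or 20Gy-3 (adjusted p 0.0654 to 0.131), and that at 30 Gy without either control, 20Gy-1 or any 30 Gy library (0.0523 to 0.195). With values rescaled to TPM, which sum to the same total in every library, they were lost too (0.165 and 0.184), and with the close 30 Gy pair averaged the call at 30 Gy was lost (0.074). The average over the doses, -1.66 (SE 0.237, adjusted p = 0.00434), was lost without control-2 (0.0767) and on the TPM scale (0.0507). The step from the lower doses to 40 Gy was -0.76 (SE 0.214, adjusted p = 0.0312) and was lost without 20Gy-1, 30Gy-1, 30Gy-2, 40Gy-2 or 40Gy-3 (0.0531 to 0.124), on the TPM scale (0.0887) and with the 30 Gy pair averaged (0.0664). CIDEB overlaps LTB4R2 and NOP9, which held 1.06 to 5.54 and 3.57 to 10.1 FPKM, far below CIDEB.

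CIDEC (ENSSSCG00000011557; chromosome 13, 66141836 to 66149801), known as FSP27 in mouse, builds large droplets in fat tissue and rises in fatty liver. It held 17.6 and 21.5 FPKM in the controls. It held 6.08, 8.45 and 5.59 FPKM at 20 Gy, 5.24, 6.83 and 4.68 at 30 Gy, and 4.11, 0.259 and 0.199 at 40 Gy. Every irradiated library was below both controls, and 40Gy-2 and 40Gy-3 were far below 40Gy-1 (20.7-fold from highest to lowest). At 40 Gy the mean was 1.52 ± 2.24 FPKM (n = 3) against 19.5 ± 2.73 (n = 2), 7.8% of control, with a log2 change of -3.37 (SE 0.521, limma adjusted p = 0.00591).

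The CIDEC change at 40 Gy was -4.06 without 40Gy-1 (adjusted p = 1.24e-05), and -4.67 with a pseudocount of 0.1. The call was lost without control-2 (0.0515) and in the fit to 40 Gy and control alone (0.104). Against the lower doses it fell by 1.83 at 40 Gy (SE 0.404, adjusted p = 0.0121), by 2.52 without 40Gy-1, and the call was lost without 40Gy-2 (0.0723) or 40Gy-3 (0.0591). The changes at 20 Gy (-1.43, SE 0.521, adjusted p = 0.146) and at 30 Gy (-1.65, SE 0.521, adjusted p = 0.137) did not pass. Without 40Gy-1, a library in neither comparison, the estimates were the same and both passed (0.00254 and 0.00161). In fits to the compared groups alone they passed too (0.0213 and 0.0136). The average over the doses was -2.15 (SE 0.446, adjusted p = 0.0248), and this call was lost without either control (0.151 and 0.219), 20Gy-1 or 30Gy-1 (0.0508 each), on the TPM scale (0.132) and with a pseudocount of 0.1 (0.0797). The ratio of CIDEB to CIDEC in FPKM was 15.9 to 27.2 in all libraries other than 40Gy-2 and 40Gy-3, where it was 274 and 305.

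**Figure D3:**
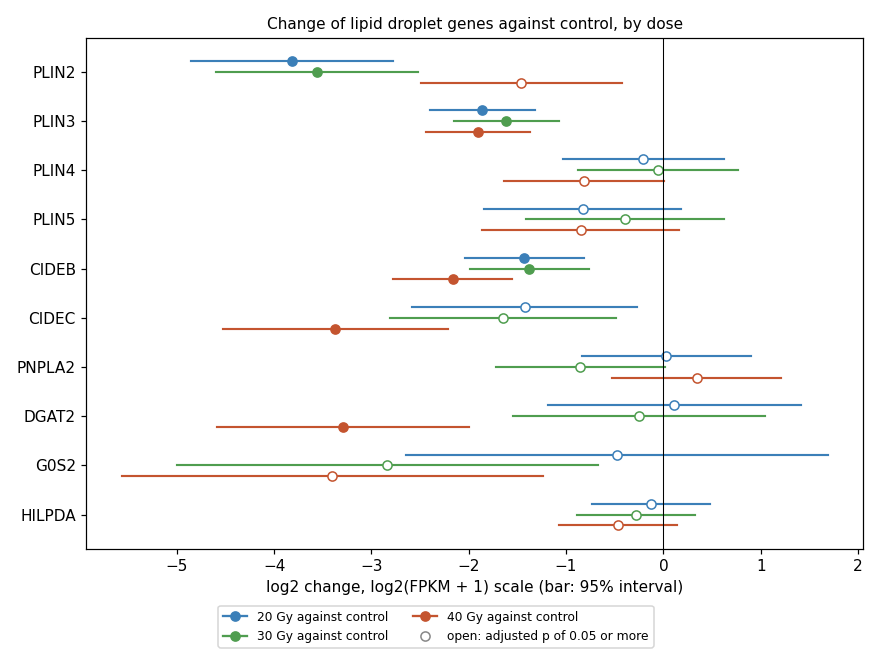
Log2 change against control of each gene at 20, 30 and 40 Gy, on the log2(FPKM + 1) scale, with 95% intervals. Filled points passed an adjusted p of 0.05. PLIN3 and CIDEB are filled at all doses, PLIN2 at 20 and 30 Gy, and CIDEC and DGAT2 at 40 Gy.

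DGAT2 (ENSSSCG00000034102; chromosome 9, 10032163 to 10066082) adds the last fatty acid to make triglyceride and supplies newly made fat to droplets. Its controls held 35.2 and 29.5 FPKM. It held 40.3, 29.9 and 35.3 FPKM at 20 Gy and 23.5, 23.3 and 35.7 at 30 Gy, but 8.90, 1.02 and 0.953 at 40 Gy. The lower doses overlapped the controls, and every 40 Gy library was below all others. The mean at 40 Gy was 3.62 ± 4.57 FPKM (n = 3) against 32.3 ± 4.03 in control (n = 2), 11.2% of control.

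The log2 change of DGAT2 at 40 Gy was -3.29 against control (SE 0.583, limma adjusted p = 0.0102) and -3.22 against the lower doses (SE 0.452, adjusted p = 0.0015). At 20 Gy its change was 0.11 (95% interval -1.18 to 1.41, adjusted p = 0.929), and the average over the doses did not pass (-1.14, SE 0.499, adjusted p = 0.236). The 40 Gy libraries differed 9.34-fold from each other. Without 40Gy-1 the changes were -4.06 against control and -4.00 against the lower doses, and the average over the doses passed (0.00189). The call at 40 Gy against control was lost without control-1 (0.0856) or control-2 (0.0593) on the TPM scale (0.0503) and in the fit to these groups alone (0.118), whereas the fall against the lower doses passed without each library in turn.

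DGAT1, the other enzyme of that step, held 15.4 to 16.9 FPKM in the controls and 7.74 to 16.1 in the irradiated livers, with a log2 change of -0.44 averaged over the doses (SE 0.265, limma adjusted p = 0.398). The ratio of DGAT2 to DGAT1 in FPKM was 2.08 and 1.91 in the controls, 1.85 to 4.02 at the lower doses, and 0.578, 0.0683 and 0.123 at 40 Gy. DGAT2 was thus the higher of the pair in every control and lower-dose library, and DGAT1 in all 3 at 40 Gy.

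PNPLA2 (ENSSSCG00000012841; chromosome 2, 513065 to 517962) takes the first fatty acid off stored triglyceride. It held 42.2 and 54.0 FPKM in the controls, 67.6, 43.8 and 39.2 at 20 Gy, 21.4, 21.6 and 37.8 at 30 Gy, and 41.6, 99.1 and 54.5 at 40 Gy. The 20 Gy and 40 Gy libraries overlapped the controls, and the 30 Gy libraries lay below both. Averaged over the doses the log2 change was -0.16 (SE 0.335, limma adjusted p = 0.828). Between 40 Gy and the lower doses it was 0.75 (SE 0.303, adjusted p = 0.1), which passed without 40Gy-1 (0.0283).

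G0S2 (ENSSSCG00000015617; chromosome 9, 133287065 to 133288066), which binds PNPLA2 and blocks it, had the widest spread within a group. It held 37.2 and 60.2 FPKM in the controls, 58.9, 49.8 and 12.8 at 20 Gy, 6.07, 5.48 and 5.78 at 30 Gy, and 21.0, 2.19 and 0.363 at 40 Gy. The 30 Gy and 40 Gy libraries were all below the controls, and the 40 Gy libraries spanned 57.9-fold. The log2 change was -2.84 at 30 Gy (SE 0.974, limma adjusted p = 0.169) and -3.40 at 40 Gy (SE 0.974, adjusted p = 0.063), and neither passed. Without 40Gy-1 both passed (0.0183 and 0.00158), as did the average over the doses (0.0116 against 0.167 with all libraries) and the difference between 40 Gy and the lower doses (0.00267 against 0.122). In fits to the compared groups alone the change at 30 Gy passed (0.005) and that at 40 Gy did not.

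The amount of G0S2 message for each PNPLA2 message, as a ratio of FPKM, was 0.881 and 1.11 in the controls. It was 0.871, 1.14 and 0.326 at 20 Gy, 0.283, 0.253 and 0.153 at 30 Gy, and 0.506, 0.0221 and 0.00667 at 40 Gy. The 30 Gy and 40 Gy libraries were below both controls, while at 20 Gy it was above both in 20Gy-2, just below the lower control in 20Gy-1, and lowest in 20Gy-3. No test was applied to this ratio.

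HILPDA (ENSSSCG00000031109; chromosome 18, 19944929 to 19947080), a small inhibitor of PNPLA2 that low oxygen and fatty acids induce, was low in every library. It held 4.37 and 9.15 FPKM in the controls and 3.82 to 7.07 after irradiation, and the groups overlapped. Its log2 change was -0.29 averaged over the doses (SE 0.234, limma adjusted p = 0.531) and -0.26 between 40 Gy and the lower doses (SE 0.212, adjusted p = 0.396).

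The larger movements around the lipase were in its partners. ABHD5 (also called CGI-58), the co-activator of PNPLA2, held 72.8 and 87.7 FPKM in the controls, 5.90, 8.43 and 7.05 at 20 Gy, 11.09, 11.4 and 7.11 at 30 Gy, and 28.2, 56.8 and 65.3 at 40 Gy. It fell at the lower doses, with a log2 change of -3.33 at 20 Gy (SE 0.341, limma adjusted p = 8.36e-04) and -2.92 at 30 Gy (SE 0.341, adjusted p = 0.00204). At 40 Gy the change was -0.75 (SE 0.341, adjusted p = 0.207), and ABHD5 was higher than at the lower doses by 2.38 (SE 0.264, adjusted p = 4.72e-04). As for PLIN2, the libraries of the lower doses held least, those of 40 Gy lay between, and the controls held most. The ABHD5 average over the doses, -2.33 (SE 0.292, adjusted p = 0.00261), was lost without control-2 (0.0556).

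PNPLA3, a droplet protein of the same family as PNPLA2 that competes for ABHD5 went the other way. It held 0.724 and 0.408 FPKM in the controls and 0.943, 0.490 and 0.353 at 40 Gy, but 21.6, 54.0 and 15.3 at 20 Gy and 42.9, 40.4 and 15.5 at 30 Gy. No library of the lower doses overlapped the others. Against the lower doses PNPLA3 at 40 Gy had a log2 change of -4.21 (SE 0.402, limma adjusted p = 1.91e-04), or -5.43 with a pseudocount of 0.1. Against control the change was 4.13 at 20 Gy (SE 0.519, limma adjusted p = 0.00241) and 4.32 at 30 Gy (SE 0.519, 0.00227), each called under all 24 alternatives. At 40 Gy it was 0.02 (SE 0.519, 0.974). The average over the doses was 2.82 (SE 0.444), or 3.63 with that pseudocount. It was called with all libraries (adjusted p = 0.00666), but not without control-1 (2.97) or control-2 (2.68). The ratio of ABHD5 to PNPLA2 in FPKM was 1.72 and 1.62 in the controls, 0.0872 to 0.529 at the lower doses, and 0.678, 0.573 and 1.2 at 40 Gy.

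**Figure D4:**
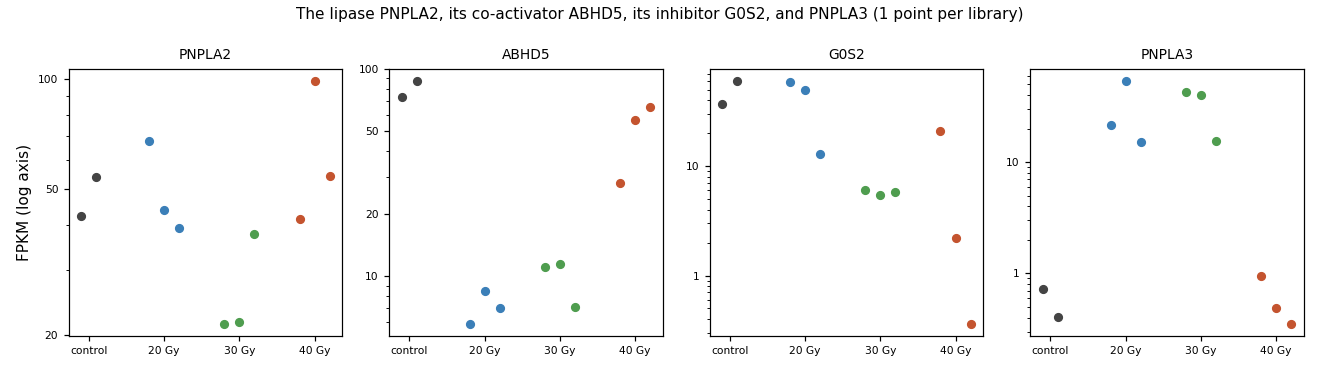
FPKM of PNPLA2, ABHD5, G0S2 and PNPLA3 on log axes, with 1 point per library. ABHD5 is low at 20 and 30 Gy (5.90 to 11.4 FPKM), PNPLA3 is high in the same libraries (15.3 to 54.0 FPKM), and G0S2 spreads widely at 40 Gy (0.363 to 21.0 FPKM).

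By dose, 3 of 10 members were called lower at 20 Gy (PLIN2, PLIN3 and CIDEB) beside 2.20% of all genes. The same number was called lower at 30 Gy, again PLIN2, PLIN3 and CIDEB, beside 1.71% of all genes. At 40 Gy 4 of 10 were called lower (PLIN3, CIDEB, CIDEC and DGAT2) beside 4.41%. These comparisons share both control libraries. The median log2 change of the members was -0.65, -1.12 and -1.68 at 20, 30 and 40 Gy, against -0.03, -0.02 and 0.06 over all genes.

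Between 40 Gy and the mean of the lower doses, PLIN2 was called higher and CIDEB, CIDEC and DGAT2 lower, 1 and 3 of 10, where 11.8% of all genes were called higher and 9.71% lower. The members' median was -0.47 against 0.07 over all genes. This comparison does not involve the controls or the difference in day. With the 30 Gy pair averaged and the libraries numbered 3 of 20 and 30 Gy left out, so that no close pair remained, no member passed in it. The adjusted p was then 0.0733 for PLIN2, 0.131 for CIDEB, 0.128 for CIDEC and 0.0572 for DGAT2. Under the same setting PLIN3 averaged over the doses, PLIN2 at 20 Gy, and PLIN3 and CIDEB at 40 Gy were still called.

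Between 30 and 20 Gy, none of the 10 members and 0% of all genes were called by limma, while 280 of all genes had an unadjusted p under 0.05. Among the members these were G0S2 (unadjusted p = 0.0216) and PNPLA2 (0.0297). The 20 Gy and 30 Gy libraries did not overlap for these genes, but the share of all genes without overlap was not counted. For PNPLA2 the nearest values were 39.2 FPKM in 20Gy-3 and 37.8 in 30Gy-3, a close pair that differed 1.04-fold. For PLIN2, PLIN3, PLIN4, PLIN5 and CIDEB the 3 highest of the 6 libraries were 20Gy-2, 30Gy-1 and 30Gy-2, so that these did not divide by dose. Over the 4806 genes with at least 5 FPKM in every library, the SD of the log2 ratio was 0.323 and 0.352 from 20Gy-2 to the 30 Gy pair.

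The genes that supply, surround and burn droplet fat were counted from lists of known function. Averaged over the doses, 2.84% of all genes were called lower and 1.86% higher. Of 12 other genes of triglyceride synthesis, 4 fell in that average and none rose. They were the acyltransferases AGPAT3 (89.9 to 21.0 FPKM, log2 change -2.11, SE 0.359, limma adjusted p = 0.0102), GPAT3 (-1.68, SE 0.392, 0.0386) and MOGAT1 (-0.91, SE 0.215, 0.0401), and the phosphatidate phosphatase LPIN3 (-1.43, SE 0.317, 0.0321). The list's median was -0.61, against 0.01 over all genes. All 4 calls were lost without either control, those of GPAT3 and MOGAT1 also without any 20 or 30 Gy library or 40Gy-2, and that of LPIN3 without any 20 Gy library, 30Gy-1 or 30Gy-2. GPAT3 was 1.74 higher at 40 Gy than at the lower doses (SE 0.355, 0.00863) and MOGAT1 was lower (-0.91, SE 0.194, 0.0105).

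Of 10 other droplet proteins, none passed averaged over the doses (median -0.11), and 3 differed between 40 Gy and the lower doses, where 21.5% of all genes were called in either direction. The retinol dehydrogenase DHRS3 was lower at 40 Gy (124.7 against 228.7 FPKM, log2 difference -0.85, SE 0.169, limma adjusted p = 0.00765). Its control mean was 129.3 FPKM, and its change against control was -0.06 at 40 Gy (SE 0.218, 0.8). At 20 Gy it was called higher than control (0.92, SE 0.218, 0.0427). Against the lower doses, the droplet dehydrogenase HSD17B11 was higher at 40 Gy (366 against 137 FPKM, 1.44, SE 0.361, 0.0206). That call was lost without 40Gy-2 or 40Gy-3 (0.0763 and 0.0757). Squalene epoxidase SQLE, which makes sterols and can sit on droplets, was lower (13.8 against 42.5 FPKM; -2.08, SE 0.562, 0.0271). Library 40Gy-1 held 32.7 FPKM, within the 29.8 to 51.4 of the lower doses, against 3.53 and 5.04 in 40Gy-2 and 40Gy-3. The change was -2.98 without 40Gy-1, and the call was lost without 40Gy-2 or 40Gy-3 (0.138 and 0.115), 20Gy-1, 20Gy-3 or 30Gy-3.

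In the average over the doses, 1.86% of all genes were called higher and 2.84% lower. Of 9 genes of lipolysis and its regulators, PNPLA3 rose and ABHD5 fell in that average, and the other 7 did not pass. Of 10 genes of lipoprotein secretion, APOA4 and APOC3, apolipoproteins of triglyceride-rich particles, fell and 8 did not pass. The call of APOC3 averaged over the doses (-0.99, SE 0.228, limma adjusted p = 0.0366) held without 40Gy-1 or 40Gy-3 but was lost without any other library (0.0578 to 0.286). APOC3 went from 22168 ± 4380 FPKM (n = 2) to 6770 ± 1441 (n = 3) at 40 Gy, and its difference from the lower doses was -1.09 (SE 0.206, limma adjusted p = 0.00633). A list for PPAR alpha, the fatty acid receptor that also acts on PLIN2 and CIDEC, held targets and also PPARA, the receptor gene, and PPARGC1A. Of its 17 genes, 4 fell averaged over the doses and 6 at 40 Gy, and none rose. At 40 Gy 4.41% of all genes were called lower. The medians of the 17 genes were -0.63 and -1.07, against 0.01 and 0.06 over all genes. The targets that fell averaged over the doses were ACADVL, ACAA2, CPT1A and HADHA of fatty acid oxidation.

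Of 12 hypoxia genes, none passed averaged over the doses (median -0.10). Only NDRG1 was higher at 40 Gy than at the lower doses (0.78, SE 0.247, limma adjusted p = 0.0484), a call held in 6 of 23 alternative settings. Of all genes, 11.8% were called higher in that comparison. Of 9 genes of fasting and insulin, SREBF1, which drives fat synthesis, rose (24.9 to 57.8 FPKM; 1.17, SE 0.226, 0.0191), and INSIG2, which restrains it, fell (18.6 to 8.66 FPKM; -1.03, SE 0.207, 0.0216). Both calls were lost without either control. They were averaged over the doses, where 1.86% of all genes were called higher and 2.84% lower.

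The genes most like each called member across all 11 libraries were found by the smallest root mean square difference of centred log2(FPKM + 1) values. For PLIN2, whose own root mean square spread was 1.56, ABHD5 was nearest (0.568), ahead of PCYOX1 (0.654) and DMTN (0.68). For PLIN3 (own spread 0.729) they were CDPF1 (0.157), PAFAH1B3 (0.203) and ACADVL (0.24). For CIDEB (0.756) they included SLC25A1 (0.158) and ABCD3 (0.173). For CIDEC (1.26) they were GPD1 (0.283), CREB3L3 (0.313) and GARNL3 (0.315), and for DGAT2 (1.57) MVK (0.341), LAMB3 (0.385) and GSTT4 (0.432). These are descriptions of 11 libraries that share groups and, in part, near-identical profiles. No gene was among the nearest 3 of more than 1 member.

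Markers of other cell types moved with some groups. All 10 hepatocyte markers were in the table, with ALB at 7050 to 42547 FPKM, and their sum was 48709 to 78405 FPKM in the controls, 50061 to 66219 at the lower doses, and 32375 to 34587 at 40 Gy. Between 40 Gy and the lower doses 3 of 10 of them were called lower and none higher, where 9.71% of all genes were called lower. The markers did not all move alike. Mean ALB was 29889, 32327 and 8326 FPKM at 20, 30 and 40 Gy. The means of FGB (4690, 5801 and 11854), CPS1 (246.5, 288.2 and 443.6) and HNF4A (81.2, 85.9 and 124.2) were highest at 40 Gy. APOB at 40 Gy lay between the lower doses, and the remaining markers had lower means there. The 5 neutrophil markers present summed to 5.30 to 6.73 FPKM in the controls, 1.73 to 2.77 at the lower doses and 13.4 to 21.8 at 40 Gy, with 4 of 5 called higher at 40 Gy than at the lower doses, where 11.8% of all genes were. The 10 macrophage markers summed to 895 to 1143 FPKM in the controls, 541 to 1049 at the lower doses and 928 to 1544 at 40 Gy, with 3 of 10 called higher at 40 Gy than at the lower doses, beside the same 11.8%. Their part in the rise of PLIN2, which macrophages also express, and in the falls of CIDEB, CIDEC and DGAT2 at 40 Gy was not tested.

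The 10 stellate cell markers summed to 44.3 to 46.5 FPKM in the controls, 84.3 to 126.7 at the lower doses and, at 40 Gy, 336.3 in 40Gy-1 but 29.8 and 24.9 in the other libraries. None was called in any comparison. The macrophage sum was also highest in 40Gy-1 (1544 FPKM, against 1066 and 928 in 40Gy-2 and 40Gy-3). This is the library with more CIDEC, DGAT2 and G0S2 than the others at 40 Gy, and the part of these markers in its values was not tested. Of the 10 adipocyte markers 5 were in the table. FABP4 was at 0 to 2.34, LPL at 0 to 1.30 and PPARG at 0 to 1.59 FPKM, and the sum of 14.4 to 232.1 FPKM came mostly from GPD1, which hepatocytes also express. In 40Gy-1, 0 of the 5 were under 1 FPKM, against 3 or 4 in each other library. PLIN1 was at 1.83 FPKM in 40Gy-1, against 0.234 and 0.229 in 40Gy-2 and 40Gy-3. The part of adipocyte markers in the values of 40Gy-1 was not tested either. Of the skeletal muscle markers only DES was in the table, at 3.77 to 8.95 FPKM.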

How the data were processed

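RNA was measured in 11 pig liver libraries from paired-end reads of 150 bp, per the labels' protocols. The authors deposited 1 table of FPKM values for 12505 genes; HISAT2 (2.104), Cufflinks (2.2.15), HTSeq and the builds Sscrofa11.1 and mm10 are named in the submitters' processing notes, with no roles. The strand setting, annotation and filters: not given in the sources used here. Genes that overlap a neighbour are therefore uncertain. No whole-read steps were found in the low values, so the depth is unknown and no counting interval is given. FPKM sums were 520839 to 949840 per library. All columns were mapped by name. Of the IDs, 10561 had a symbol in the gene table; coordinates were matched by symbol to RefSeq's Sscrofa11.1.

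Values were analysed as log2(FPKM + 1) for the 11644 genes that reached 1 FPKM in 2 or more libraries. A model with 4 group means and 7 residual degrees of freedom was fitted in limma 3.58.1 (R 4.3.3; eBayes with trend) and tested on simulated data. The 6 comparisons were two-sided and Benjamini-Hochberg adjusted over all genes. The alternatives were other pseudocounts and filters, TPM and quantile scaling, fits to the compared groups alone, the replicate block, handling of the close libraries, and leaving out each library. The text names all 10 members, 5 fixed partners (CIDEA is not analysed here), at most 4 called genes per list by smallest adjusted p, and the 3 genes most like each called member, of which 1 is not reported here. The members, lists and tests were chosen with earlier results of these data known.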

Additional observations from a re-analysis of the deposited data

How the results depend on the processing

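Over 24 alternatives, 1402 of 1580 values of the named genes kept their direction and side of the threshold, 160 lost a call and 15 gained one. The estimates that changed sign, none of them called, were PNPLA2 averaged over the doses (0.0133), HILPDA averaged over the doses (0.166) and DGAT2 at 20 Gy (-0.01), each without control-2; without control-1 the values of PNPLA2 and DGAT2 were -0.33 and 0.24. Among the members, PLIN2 at 20 Gy, PLIN3 averaged over the doses and at 40 Gy, and CIDEB at 40 Gy were called under every alternative run. Those of PLIN3 and CIDEB came close to the threshold in some settings. With 2 controls, 1 library decides many calls, and depth is unknown.

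On the TPM scale the median of all genes moved to 0.14 averaged over the doses and 0.18 at 20 Gy. There 207 genes (124 higher, 83 lower) were called averaged over the doses against 548 (217 and 331), 234 (155 and 79) at 20 Gy against 492, 159 at 30 Gy against 353, 381 (247 and 134) at 40 Gy against 861 (348 and 513), and 1547 between 40 Gy and the lower doses against 2508; of the members 2 against 4 were called averaged over the doses. With the 30 Gy pair averaged the gene counts were 337, 295, 130 and 548 for the average, 20, 30 and 40 Gy. Without the 20 and 30 Gy libraries numbered 3 they were 290, 206, 126 and 551, with 1177 between 40 Gy and the lower doses and 2 between 30 and 20 Gy. With both steps together they were 42, 59, 8, 123, 202 and 1, and the members called were 1, 1, 0, 2 and 0 against 4, 3, 3, 4 and 4. In fits to the compared groups alone, 547 genes and 5 members were called at 30 Gy, and 48 genes and 2 members at 40 Gy. The cause of these shifts was not tested, other than that fewer libraries enter some fits.

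Without each library in turn, gene counts ranged from 80 to 1416 averaged over the doses, 118 to 1644 at 20 Gy, 75 to 1110 at 30 Gy, 224 to 2655 at 40 Gy, 846 to 4611 between 40 Gy and the lower doses, and 0 to 3 between 30 and 20 Gy. The highest of the first 5 came without 40Gy-1. The lowest came without control-2 for the average, 20 and 30 Gy, without control-1 at 40 Gy and without 40Gy-2 against the lower doses. Members called ranged from 1 to 6, 2 to 4, 1 to 5, 2 to 6 and 2 to 7 in the same order, and were 0 between 30 and 20 Gy.

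Libraries of different groups that share a number were not alike in every case. Of 15 same-numbered pairs, 6 had a correlation over 0.1 (range -0.753 to 0.825), and 5 of 11 libraries correlated best with their own number. The values were centred within each group, which ties its libraries to each other. The check therefore cannot decide whether some numbers mark pairs. Libraries 20Gy-3 and 30Gy-3, which share a number, were the closest of all 55 pairs. With the replicate block, 440, 399, 244, 805, 2554 and 0 genes were called in the 6 comparisons. Of the members, CIDEC averaged over the doses was lost (0.0541).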
